A study of Amphimedon queenslandica with 144 samples.

Results

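Larvae of the sponge Amphimedon queenslandica that had spent 2 h beside the coralline alga Amphiroa fragilissima without settling were compared with larvae of the same age held in seawater alone. The members are the 9 swimming larvae given A. fragilissima and the 9 given filtered seawater at an induction age of 5 h, chosen by the cue, age and stage in their labels, and they are 18 of the 144 animals of the series. At collection both groups were 7 h past emergence from the adult. Each exposed larva had been alone in its well with 1 piece of the alga, about 5 mm long, and each control larva alone in filtered seawater, and no larva in these groups had attached. Animals in the remaining groups were larvae induced at 1.5, 3 or 8 h, larvae given the crustose alga Mesophyllum sp., settled post-larvae, and larvae of 0.5 h without a cue. Every library was made from the RNA of 1 whole larva by CEL-Seq2, which counts molecules by a tag at the 3' end.

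Sponge larvae of this kind are solid, with an outer layer of ciliated cells that drives swimming and a pigmented ring whose long cilia steer the larva relative to light. They emerge from a brooding adult, swim for some hours while they become able to respond to a surface, and then attach and begin metamorphosis. Coralline algae are widely known as settlement inducers for reef larvae. The exposed group contains only larvae that stayed in the water during the exposure, so a response to the alga and the choice of larvae that had not settled cannot be told apart. The labels do not say whether the larvae shared a mother, and p-values therefore measure the spread between single animals. In the edgeR fit to the whole series that spread was taken from all 144 animals, settled ones included. Because whole larvae were sequenced, a change in the number of cells of a type and a change in RNA per cell cannot be told apart.

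The transcripts are given by their Aqu2.1 identifiers, because none of the 47411 identifiers could be paired with a gene name in the annotation used here. Their functions, any marker of cilia, pigment cells or other larval tissue, and their sequences are therefore not described. Transcripts are grouped by direction, abundance, evenness among larvae and behaviour in other animals.

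The 18 larvae had total counts from 1271411 to 2894101 and counts in 17171 to 21794 features. Means were 1895862 ± 551374 in A. fragilissima larvae and 2088983 ± 348719 in seawater larvae (SD, n = 9 each), a difference within the spread between animals (p = 0.382, exact permutation test, 2-sided). Libraries carried the labels T, K and C, and the alga larvae fell 4 in T and 5 in K while the seawater larvae fell 3 in T, 5 in K and 1 in C. Depth differed in opposite directions in these libraries. In T the alga larvae averaged 1554208 counts against 2425215 (p = 0.0571, exact permutation test, the smallest that 4 against 3 animals can give), and in K they averaged 2169185 against 1948342 (p = 0.468, exact permutation test). The larvae of a group resembled each other to a like degree, with median Spearman correlations across genes between pairs of larvae of 0.861 with the alga and 0.864 in seawater.

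Of 14950 features tested, 47 differed between larvae beside A. fragilissima and seawater larvae (edgeR, adjusted p below 0.05), which is 0.314% of them. The 14 that rose (0.0936%) were mostly above the middle of the tested features in abundance, and the median member exceeded 70.6% of them. The 33 that fell (0.221%) were mostly among the most abundant transcripts of the larva. At an unadjusted p below 0.05 there were 1221, where chance alone would give a share of about 0.05 of the features tested. All 47 were gene models and none was one of the 424 tested features with the other form of identifier. No called transcripts carried adjacent numbers.

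Among the 14 that rose, 11 had counts in all 18 larvae. Their log2 fold changes ran from 0.66 to 3.11 with a median of 0.96, which is 1.94-fold, and their mean levels ran from 14.04 to 211 CPM, counts scaled to a common library total, with a median of 58.8. In each alga larva these 11 together stood 0.93 to 1.45 above the seawater mean on the log2 scale, and single seawater larvae stood between -0.23 and 0.22. Every alga larva thus showed the rise, but this is the difference the transcripts were chosen for. Their joint share of all counts was 0.128% ± 0.0160 with the alga and 0.0614% ± 0.00633 in seawater (SD, n = 9 each).

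Among the 33 that fell, 31 had counts in all 18 larvae. Their falls were smaller, with a median log2 fold change of -0.57 (1.48-fold) and a range of -2.15 to -0.35. Their mean levels ran from 27.3 to 2027 CPM with a median of 838 CPM, and the median member was more abundant than 99.2% of the features tested. A count of 3' tags does not grow with transcript length, so these levels can be ranked between transcripts. Small changes pass the test more readily in transcripts that vary little between larvae. The median SD of log2 CPM was 0.208 with the alga and 0.239 in seawater for the 31. For all features tested it was 0.606 and 0.594. Together the 31 took 2.13% ± 0.139 of all counts with the alga and 2.92% ± 0.257 in seawater (SD, n = 9 each), with ranges of 1.93% to 2.32% and 2.54% to 3.25% that did not overlap. This gap, too, is the difference the transcripts were chosen for.

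**Figure D1:**
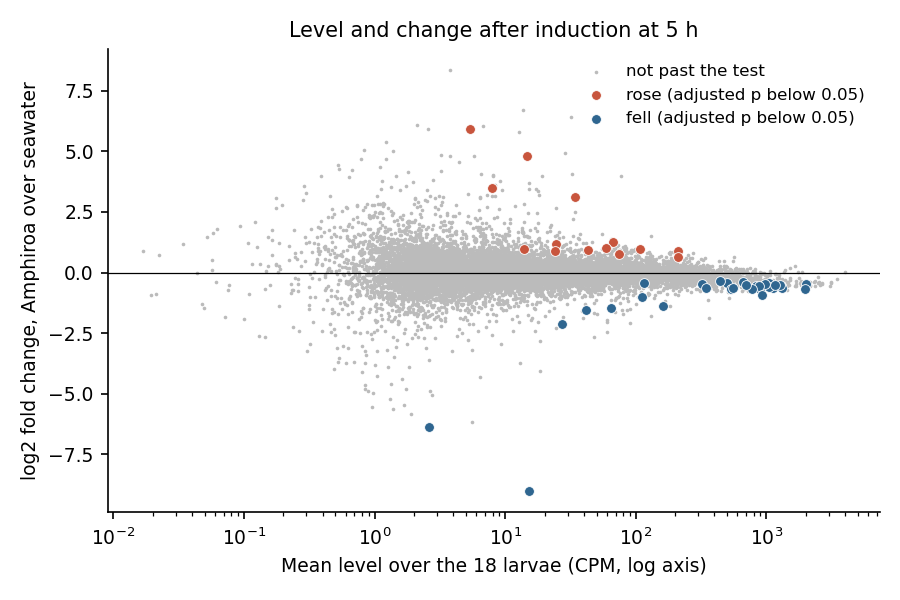
Mean level over the 18 larvae (CPM, log axis) against the log2 fold change of A. fragilissima over seawater larvae, 1 point for each of the 14950 features tested that had a mean level above 0. The 14 transcripts that rose (red) lie at up to 211 CPM, and the 33 that fell (blue) lie mostly at the right, with a median level of 774 CPM and small changes.

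Many of the falling transcripts lay near the top of the counting scale. The highest count in the series was 8192, and 15 of the 33, against 183 of all 14950 features, had a count above 0.5 of that maximum in some animal of the series. Those 183 features held 19.3% ± 1.24 of the counts of alga larvae and 22.4% ± 2.11 of seawater larvae (SD, n = 9 each). In K the shares were 19.3% ± 1.50 and 23.5% ± 1.82 (SD, n = 5 each) and did not quite separate, since the highest alga larva had 21.7% and the lowest seawater larva 21.6%. In T they were 19.3% ± 1.03 (SD, n = 4) and 20.2% ± 0.602 (SD, n = 3). How far counting near this limit enters the falls was not tested. With these features left out of the fit, 31 of the 47 were tested and 18 features were called, 8 that rose and 10 that fell.

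The 2 groups of larvae did not overlap in CPM for 21 of the 14950 features, which is 0.14%, with the alga larvae higher in 4 (0.0268%) and lower in 17 (0.114%). Of the 14 called transcripts that rose 1 was separated in this way, and of the 33 that fell 6 were. The heat map of called transcripts shows the same rows by larva.

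**Figure D2:**
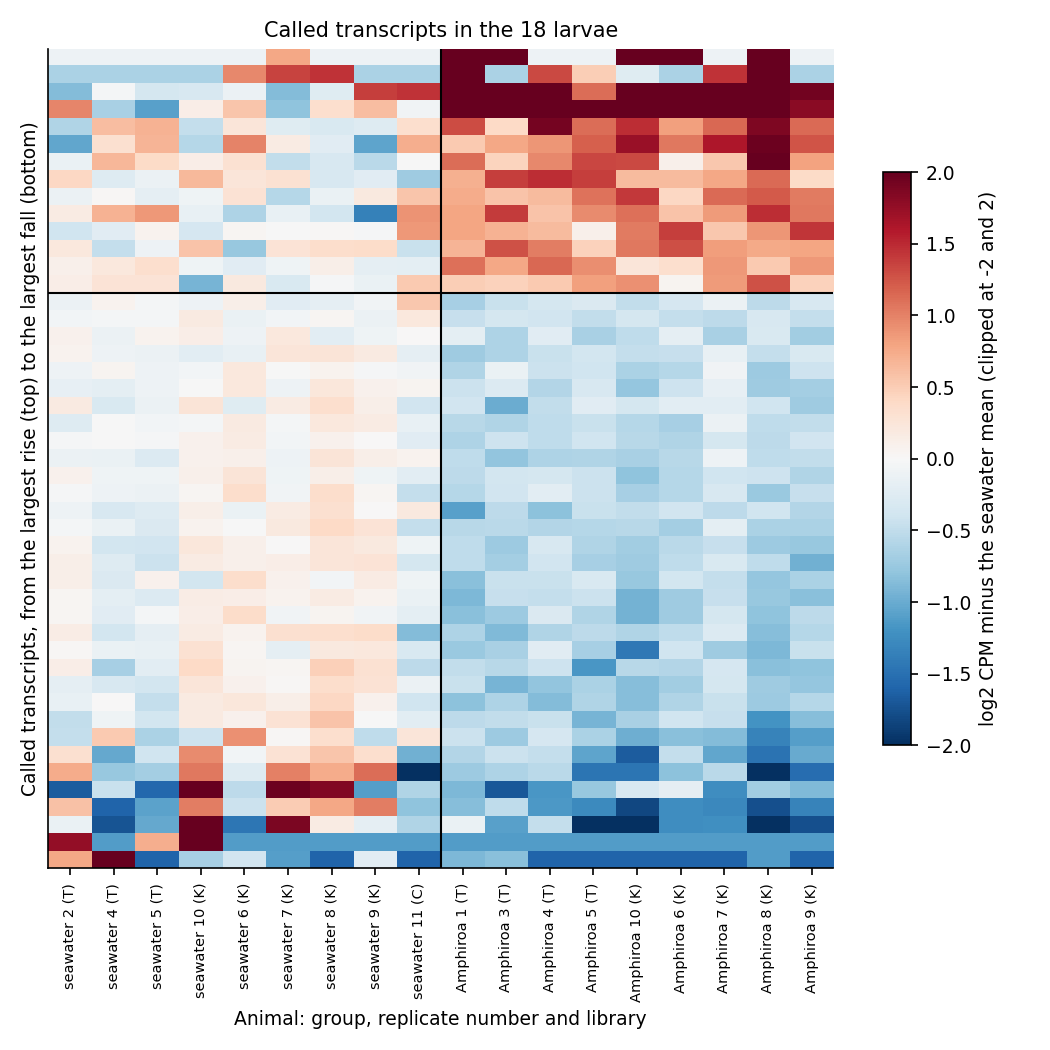
Levels of the 47 called transcripts (rows) in the 18 larvae (columns, labelled with group, replicate number and library), as log2 CPM minus the seawater mean, clipped at -2 and 2. The 14 rows above the line rose and the 33 below it fell, and a few rows at the top and bottom are carried by some of the larvae.

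The number of calls depended on the fit and on the larvae in it. A fit to the 18 larvae alone, which tested 10113 features, called 151, 34 of them among the 47. DESeq2 on all animals gave an adjusted p to 1038 features and called 125 of these (12%), 27 of them among the 47, and without its filter on low means it called 83, 45 of them among the 47. Leaving out 1 larva at a time gave 17 to 75 calls, and 13 transcripts were called each time. Without alga larva 1, 3, 6, 8, 9 or 10 the count was 24, 31, 31, 18, 19 or 19, without seawater larva 6, 7, 8, 9 or 10 it was 31, 23, 21, 23 or 17, and without seawater larva 11, the one in library C, it was 75.

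Aqu2.1.42041_001 had the smallest p among the transcripts that rose. In seawater its level was 2.59 CPM in the lowest larva, 7.32 CPM in the median larva and 13.96 CPM in the highest, and beside the alga it was 25.6, 50.7 and 132.9 CPM. Every alga larva was above every seawater larva. The means were 61.6 ± 35.3 and 7.40 ± 3.81 CPM (SD, n = 9 each). On the log2 scale it rose by 3.11 ± 0.53 (SE), with an adjusted p of 0.000496 in edgeR. The log2 fold change was 3.51 ± 0.73 in library T alone (SE; edgeR, adjusted p = 0.904) and 2.62 ± 0.40 in K alone (SE; edgeR, adjusted p = 0.0243).

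Aqu2.1.32109_001, the second of the rising transcripts, was more abundant and changed less. Its level was 84.1 CPM in the lowest seawater larva, 166 CPM in the median and 211 CPM in the highest, against 197, 255 and 352 CPM beside the alga. The ranges overlapped slightly, since 1 seawater larva in K lay above 1 alga larva in T. The means were 273 ± 52.9 and 149 ± 44.3 CPM (SD, n = 9 each), and it rose by 0.87 ± 0.15 on the log2 scale (SE; edgeR, adjusted p = 0.000496). Neither library alone passed the test, with log2 fold changes of 1.00 in T (adjusted p = 0.933, edgeR) and 0.76 in K (adjusted p = 0.129, edgeR).

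Aqu2.1.26016_001 had the smallest p among the evenly detected transcripts that fell. Seawater larvae ran from 1325 CPM through a median of 1679 CPM to 1796 CPM, and alga larvae from 836 CPM through 982 CPM to 1188 CPM. The groups did not overlap. The alga mean was 1022 ± 146 CPM and the seawater mean 1615 ± 173 CPM (SD, n = 9 each). Its log2 fold change of -0.65 had an SE of 0.13 and an adjusted p of 0.00257 in edgeR. It was -0.41 ± 0.15 within T (SE; edgeR, adjusted p = 0.962) and -0.82 ± 0.10 within K (SE; edgeR, adjusted p = 0.0107).

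Aqu2.1.41060_001 was the most abundant of these 4 transcripts. Its level was 1851 CPM in the lowest seawater larva, 2423 CPM in the median and 3046 CPM in the highest, against 1253, 1459 and 1875 CPM beside the alga. Only the highest alga larva reached the seawater range. The alga mean was 1494 ± 201 CPM, and the seawater larvae averaged 2423 ± 439 CPM (SD, n = 9 each). Its log2 fold change was -0.67 with an SE of 0.13 (edgeR, adjusted p = 0.00257), with values of -0.39 within T (adjusted p = 0.962, edgeR) and -0.84 within K (adjusted p = 0.0145, edgeR). Its counts in single seawater larvae reached 6153, in the upper part of the counting scale.

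**Figure D3:**
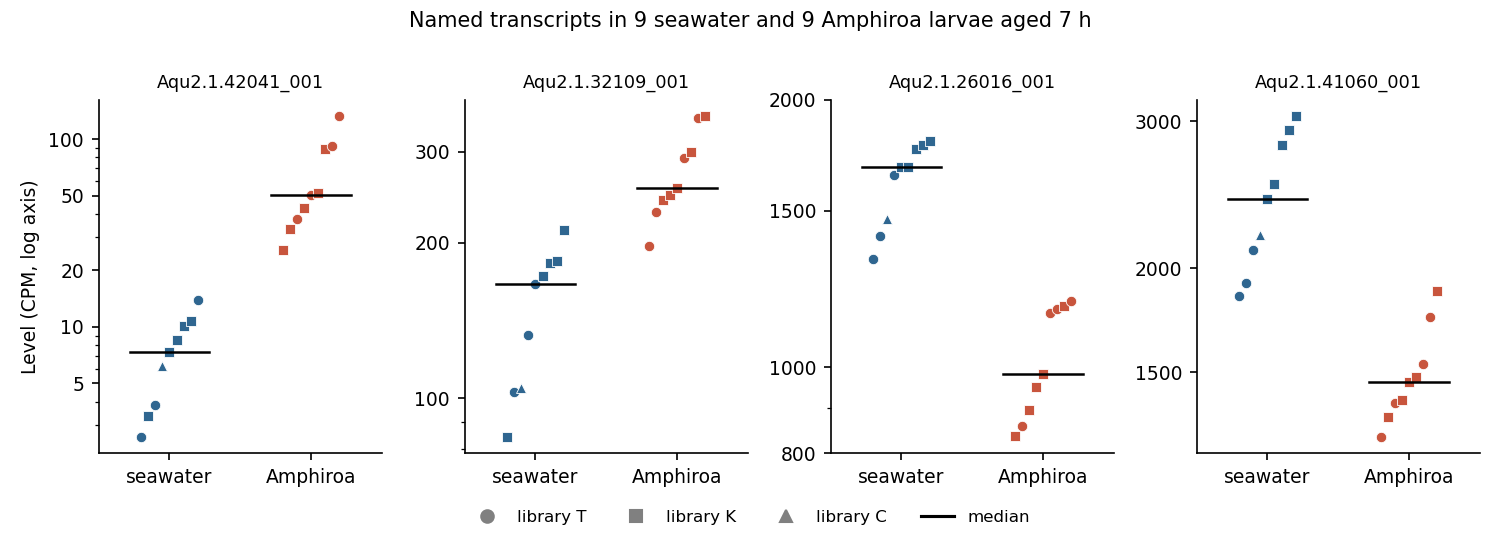
Level (CPM, log axis) of the 2 rising and 2 falling transcripts with the smallest p in each of the 9 seawater and 9 A. fragilissima larvae, with the library as the point shape and a line at the median. Groups are separate for Aqu2.1.42041_001 and Aqu2.1.26016_001, and for the other pair the ranges meet.

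The remaining 5 called transcripts were uneven, with no count in at least 1 of the 18 larvae, and no fold change is given for them. Of the 3 that rose, the first was counted in 9 alga larvae and 7 seawater larvae, with medians of 10.7 and 0.535 CPM. The second was counted in 6 and 3 larvae, with a maximum of 151 CPM in the alga group and 3.21 CPM in seawater. The third was counted in 5 and 1, with a maximum of 51.4 and 0.835 CPM. The second and the third thus rest on some of the larvae. Of the 2 that fell, one was counted in 3 alga larvae and 6 seawater larvae, and its highest values were 0.710 and 262 CPM. Its seawater median was 0.915 CPM, and the value of 262 CPM came from 1 larva far above the others. The other had counts in 3 seawater larvae, up to 37.96 CPM, and in 0 of 9 alga larvae, where 3 counts over the group would make 0.156 CPM, a limit that covers counting error only.

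Libraries T and K hold different larvae and so give separate measures of the same contrast. Within K, 118 of 10241 features differed (1.15%), 47 that rose and 71 that fell, and 22 of these belonged to the 47 called over all animals. Of the 118, 115 were tested in T, and 99 of them (86.1%) had the same sign there, against 55.9% of the 9924 features tested in both libraries. The changes in T were smaller, with a median absolute log2 fold change of 0.32 against 0.85 in K, where those features were chosen for their size. T alone, with 4 and 3 larvae, gave 1 call in 11032 (0.00906%). It had 535 features at an unadjusted p below 0.05, no more than the share of 0.05 that chance alone would give.

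The changes of transcripts called over all animals had smaller medians in T than in K. The change was larger in K for 29 of 31 falling transcripts, but for only 7 of 12 rising ones. Of the 31 falling transcripts tested in both libraries, 30 were lower with the alga in each, and the median log2 fold change was -0.41 in T and -0.72 in K. Of the 12 rising ones, all were higher in each library, with medians of 0.84 in T and 1.28 in K. These directions are in part fixed by the choice of the transcripts, which used both libraries. Whether the effect differed between T and K was not tested, and depth moved with it, since alga larvae were shallower than seawater larvae in T and deeper in K.

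The same exposure at other ages used none of these 18 larvae. After induction at 3 h, 13 of the 14 rising transcripts were again higher beside A. fragilissima and all 33 falling ones were lower, while 57.7% of all features tested had the sign they had at 5 h. After induction at 1.5 h these counts were 12 of 14 and 27 of 33 (54.0% of all), and after induction at 8 h they were 14 of 14 and 23 of 33 (53.3% of all). At all 3 other ages together, 12 of the 14 and 19 of the 33 kept their sign, against 22.7% of all features.

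The median sizes were smaller at the other ages, though some single transcripts changed more there than at 5 h. For the 11 evenly detected rising transcripts the median log2 fold change was 0.57 at 1.5 h, 0.89 at 3 h and 0.44 at 8 h, beside 0.96 at 5 h. For the 31 falling ones it was -0.18, -0.29 and -0.06, beside -0.57 at 5 h. Transcripts chosen at 5 h are favoured to be largest there, so this order is a description. After induction at 1.5 h 1.06% of all features were called, with 0.348% higher and 0.709% lower beside the alga, and these included 5 of the rising transcripts as higher and 2 of the falling ones as lower. At 3 h 1.2% were called, with 0.635% higher and 0.569% lower, and these included 5 and 8. At 8 h 0.114% were called, with 0.107% higher and 0.00669% lower, and these included 3 and 0.

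**Figure D4:**
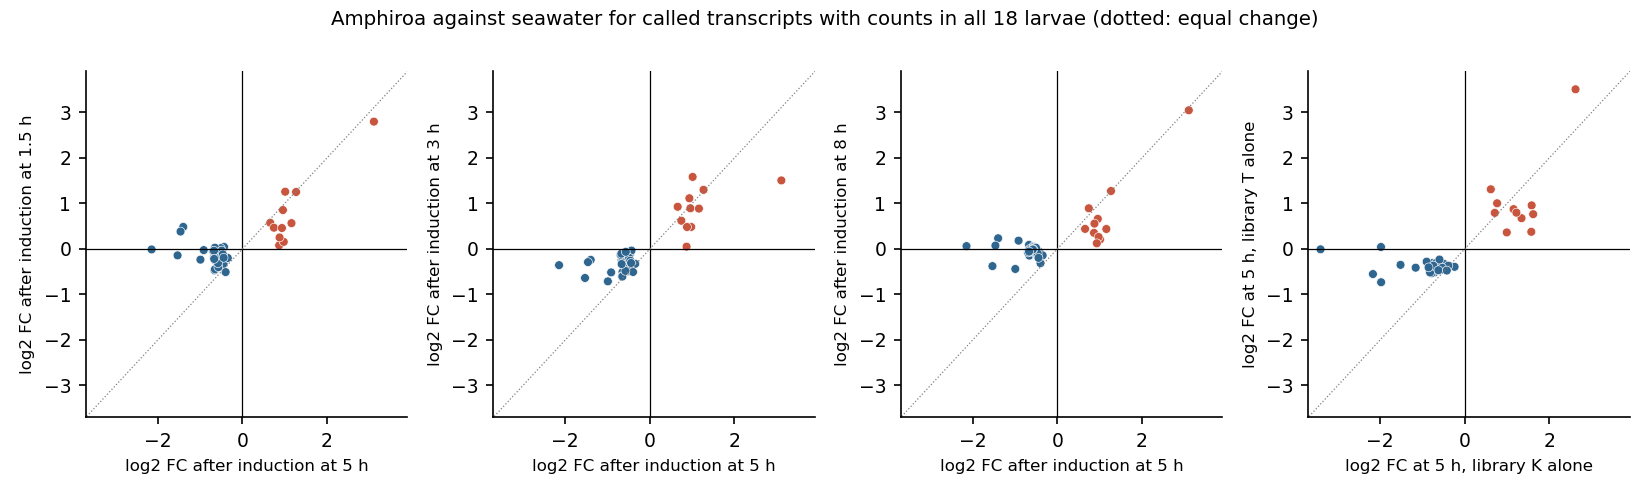
Log2 fold change of A. fragilissima over seawater for the 42 called transcripts counted in all 18 larvae, after induction at 5 h (horizontal axis) against induction at 1.5, 3 and 8 h, and in library K against library T at 5 h (last plot). Points in the lower left and upper right keep their sign, and most falling transcripts (blue) lie nearer to 0 in the other larvae than on the dotted line of equal change.

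The test of whether the alga effect at 5 h differed from the mean effect at the other 3 ages called 0 of 14950 features (0%) in edgeR, with 915 at an unadjusted p below 0.05 and 3 called by DESeq2. With no filter on low counts edgeR called 2. For Aqu2.1.42041_001 the excess at 5 h was 0.66 ± 0.61 on the log2 scale (SE; edgeR, adjusted p = 0.939). Its log2 fold changes were 2.80 at 1.5 h (adjusted p = 0.0019, edgeR), 1.50 at 3 h (adjusted p = 0.144, edgeR) and 3.05 at 8 h (adjusted p = 0.00161, edgeR). For Aqu2.1.26016_001 the excess was -0.38 ± 0.15 (SE; edgeR, adjusted p = 0.613), and at 3 h its log2 fold change was -0.51 (adjusted p = 0.0186, edgeR).

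Aqu2.1.32109_001 followed age closely in seawater. Its mean level went from 1475 ± 211 CPM in larvae of 3.5 h and 1024 ± 156 CPM in those of 5 h to 149 ± 44.3 CPM at 7 h and 106 ± 13.3 CPM in the oldest, of 10 h (SD, n = 9 each). From 3.5 to 10 h its log2 fold change was -3.80 ± 0.17 (SE; edgeR, adjusted p = 9.73e-43). Beside A. fragilissima the means were 1544 ± 293, 1023 ± 152, 273 ± 52.9 and 131 ± 25.5 CPM at the same ages (SD, n = 9 each). The cue groups thus lay together at 3.5 and 5 h, where the log2 fold changes were 0.08 and 0.05 (adjusted p = 0.903 and 0.953, edgeR). At 7 h the alga larvae lay between the 5 h and 7 h seawater levels, nearer the latter. The excess of the effect at 5 h over the other induction ages was 0.71 ± 0.18 on the log2 scale (SE), with an unadjusted p of 0.000101 and an adjusted p of 0.295 in edgeR.

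Age also moved others of the called transcripts in seawater. Between 3.5 and 10 h, where 7.93% of all features were called (3.91% higher and 4.03% lower in older larvae), 3 of the 14 rising transcripts were called, all lower in older larvae. Of the 33 falling ones 9 were called, 4 higher and 5 lower in older larvae. The mean of the 11 rising transcripts, in log2 CPM relative to seawater larvae at 7 h, was 0.68 ± 0.13 at 3.5 h, 0.46 ± 0.22 at 5 h and 0.04 ± 0.11 at 10 h in seawater (SD, n = 9 each). Beside A. fragilissima it was 1.42 ± 0.16, 1.33 ± 0.22, 1.12 ± 0.16 and 0.71 ± 0.37 from the youngest to the oldest larvae (SD, n = 9 each), above the seawater mean of each age.

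The mean of the 31 falling transcripts had a different course. In seawater it was -0.32 ± 0.15 at 3.5 h, -0.19 ± 0.18 at 5 h and -0.17 ± 0.20 at 10 h relative to the larvae of 7 h (SD, n = 9 each), so those of 7 h stood highest of the seawater ages. Larvae of 0.5 h, without a cue, were at 0.05 ± 0.21 (SD, n = 9). Beside A. fragilissima it was -0.47 ± 0.13, -0.52 ± 0.16, -0.65 ± 0.13 and -0.24 ± 0.19 in order of age (SD, n = 9 each), lowest at 7 h. The transcripts were chosen for a wide gap between exactly these larvae of 7 h, which favours both extremes.

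**Figure D5:**
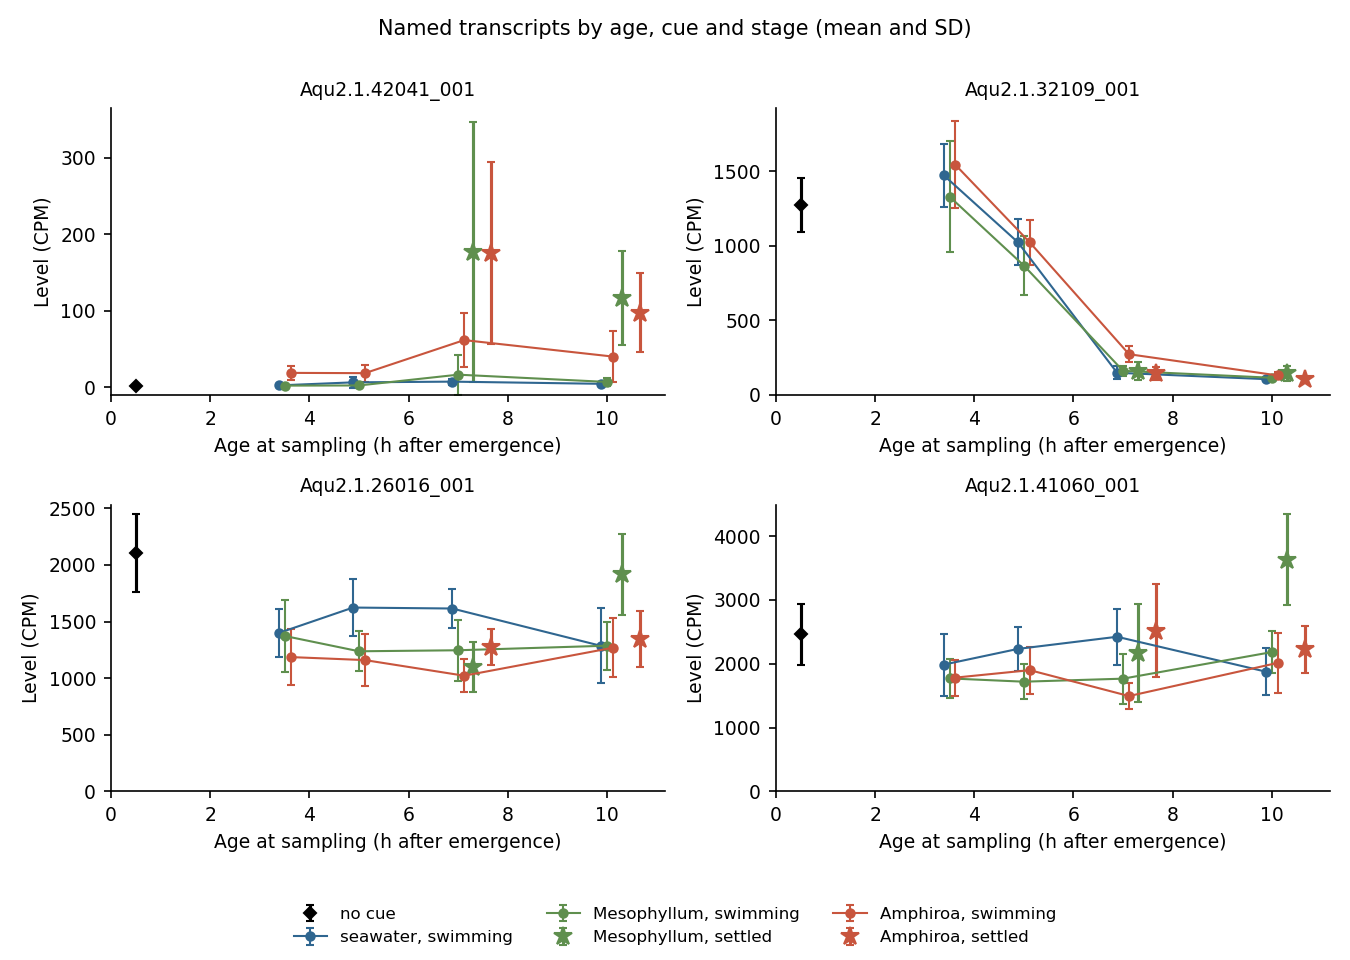
Mean level (CPM) with SD of the 4 named transcripts in all 17 groups by age at sampling, with swimming larvae joined by lines by cue and settled post-larvae as stars shifted to the right. Aqu2.1.42041_001 has its highest means in settled animals and is higher than in seawater beside A. fragilissima, and Aqu2.1.32109_001 drops between 5 and 7 h with every cue.

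Settlement, in other animals, gives a further measure of the same transcripts. Settlement on Mesophyllum sp. uses none of the 18 larvae, though its settled animals are mostly in library C, 5 of 7 after induction at 5 h and 7 of 7 after induction at 8 h. After induction at 8 h, where 12.2% of all features rose and 7.27% fell, 8 of the 14 rising transcripts rose in settled animals and 0 fell. Of the 33 falling transcripts, 16 rose in settled animals and 1 fell. In both groups of transcripts most of those that passed the test at settlement were thus higher. The median log2 fold changes were 0.90 for the 11 and 0.40 for the 31 evenly detected members, beside a median of -0.10 for all features. After induction at 5 h, where 4.97% of all features were called and 4.35% rose, 4 of the rising and 2 of the falling transcripts were called, all higher in settled animals. The median log2 fold changes at that age were 0.52 for the 11 and 0.02 for the 31, beside -0.01 for all features. Of the 31, 17 were higher and 14 lower in settled animals, so the falling transcripts as a group did not rise there.

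Aqu2.1.42041_001 also rose at settlement on Mesophyllum sp., by 3.42 ± 0.54 on the log2 scale after induction at 5 h (SE; edgeR, adjusted p = 6.52e-07) and by 3.99 ± 0.58 after induction at 8 h (SE; edgeR, adjusted p = 1.09e-08). Settled animals of 7 h had 177 ± 170 CPM on Mesophyllum sp. (SD, n = 7) and 176 ± 119 CPM on A. fragilissima (SD, n = 6), and the swimming alga larvae of that age had 61.6 ± 35.3 CPM. The settled animals ran from 9.59 to 491 CPM on Mesophyllum sp. and from 37.3 to 355 CPM on A. fragilissima, both overlapping the swimming alga larvae. Aqu2.1.41060_001, which fell beside the alga, was higher in the post-larvae on Mesophyllum sp. induced at 8 h, by 0.66 ± 0.14 on the log2 scale (SE; edgeR, adjusted p = 0.000148). Aqu2.1.26016_001 was likewise higher there, by 0.53 ± 0.14 (SE; edgeR, adjusted p = 0.00208). Neither passed the test after induction at 5 h. The log2 fold changes were then 0.32 for Aqu2.1.41060_001 (adjusted p = 0.214, edgeR) and -0.18 for Aqu2.1.26016_001 (adjusted p = 0.598, edgeR).

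A settlement score was taken for each animal as the average of log2 CPM over the 1821 transcripts that rose in post-larvae on Mesophyllum sp. induced at 8 h, minus that of the 1087 that fell. It was 0.600 ± 0.0585 in alga larvae and 0.541 ± 0.0619 in seawater larvae (SD, n = 9 each), with ranges of 0.515 to 0.699 and 0.442 to 0.611 that overlapped. The alga and seawater means were 0.698 and 0.614 after induction at 1.5 h, 0.674 and 0.556 after 3 h, and 0.718 and 0.571 after 8 h. Larvae of 0.5 h averaged 0.789, above both groups of 7 h. Swimming larvae given Mesophyllum sp. averaged 0.633, 0.583, 0.653 and 0.471 after induction at 1.5, 3, 5 and 8 h. At 5 h their mean (SD 0.138, n = 9) was above that of the alga larvae. Those induced at 8 h were used to build the score, which favours a low value in them. Settled groups averaged 1.59 to 2.92. The highest of them, on Mesophyllum sp. after induction at 8 h, holds the animals the score was built from, which favours a high value there. The lowest settled animal, on Mesophyllum sp. after induction at 5 h, had 0.593, within the range of the alga larvae. Of the 47 called transcripts 25 are in this score, which holds 19.5% of all features tested. An age score, made in the same way from the 584 transcripts that rose and the 602 that fell in seawater between 3.5 and 10 h, was -1.04 ± 0.226 in alga larvae and -0.775 ± 0.248 in seawater larvae (SD, n = 9 each). The ranges were -1.38 to -0.738 and -1.22 to -0.438. After induction at 3 h the alga and seawater means were -1.87 and -1.47. After induction at 1.5 and 8 h they were -2.25 against -2.07 and -0.501 against -0.208, but the score was built from those seawater larvae, which favours extreme values in them. Of the 47 called transcripts 12 are in the age score, which holds 7.93% of all features tested. Both scores are descriptions, with no test.

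Comparisons of larvae given Mesophyllum sp. at 5 h share the seawater or the alga larvae, and so their values are only set beside the others. Of these 9 larvae 6 are in library C, 3 in T and 0 in K, so this cue and the library are separated largely through the other groups of the fit. Against seawater, 3 features were called for Mesophyllum sp. (0.0201%) in edgeR and 10 in DESeq2, 822 had an unadjusted p below 0.05, and 0 of the 47 were among the edgeR calls. The median log2 fold change was 0.62 for the 14 transcripts that rose beside A. fragilissima and -0.29 for the 33 that fell. A direct comparison of A. fragilissima with Mesophyllum sp. at this age called 0 features (0%) in edgeR and 3 in DESeq2. It had 655 at an unadjusted p below 0.05, no more than the share of 0.05 that chance alone would give. The medians there were 0.62 and -0.30. The transcripts were chosen for the gap between the alga and seawater larvae that these contrasts use, which favours a middle place for any other group. Aqu2.1.42041_001 was at 16.5 ± 26.0 CPM (SD, n = 9) beside Mesophyllum sp., where 1 larva had 82.1 CPM and the median was 5.78 CPM, below the seawater median.

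Animals that had settled on A. fragilissima after induction at 5 h were compared with the 9 that still swam, in a contrast that shares those 9. All 6 settled animals are in library C and the swimming ones are in T and K, so stage and library are separated only through the other groups of the fit. Of the 47 transcripts, 6 of the 14 rising and 16 of the 33 falling ones were called there, where 12.9% of all features were (8.68% higher and 4.25% lower in settled animals). In settled animals 4 of those 6 were higher and 2 lower, and all 16 were higher. The falling transcripts were chosen for low levels in these same 9 swimming larvae, which favours higher values in any animals set against them. The rising ones were chosen for high levels there, which likewise favours lower values in the settled animals. The median log2 fold change was 0.36 for the 14 rising and 0.43 for the 33 falling transcripts. Aqu2.1.32109_001 was lower in the settled animals, at 146 ± 43.4 CPM (SD, n = 6), with a log2 fold change of -0.75 and an SE of 0.19 (edgeR, adjusted p = 0.00256). Aqu2.1.41060_001 was higher, at 2520 ± 724 CPM (SD, n = 6), by 0.70 ± 0.16 (SE; edgeR, adjusted p = 0.000673).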

How the data were processed

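The authors deposited 1 table of counts, whole numbers for 47411 features in 144 animals. Per the series' design text in the labels, reads were split by barcode with the CEL-Seq pipeline and mapped to Aqu2.1 gene models. Aligner settings and genome build: not given in the sources used here. The members and all groups of transcripts were chosen with earlier results of these data known.

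Tests on the deposited counts used edgeR 4.0.16 in R 4.3.3 (quasi-likelihood F, robust), with 17 group means and library as terms and all 144 animals in 1 fit. The edgeR low-count filter by group kept 14950 features with 99.4% of counts, and library sizes were scaled by TMM. Adjusted p are Benjamini-Hochberg over all features, 2-sided, with a threshold of 0.05. CPM are not corrected for library, and log2 CPM used a prior count of 2. Named transcripts were the 2 in each direction with the smallest p among those called, counted in all 9 larvae of the higher group and of the same sign in T and K. Other thresholds of abundance, DESeq2 1.42.0 and other sets of animals were alternatives. Totals were compared with SciPy 1.17.1. The fit was also run on simulated data with known changes, where the share of false calls exceeded the threshold of 0.05 and most of the smallest changes were missed.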

Additional observations from a re-analysis of the deposited data

Results flagged for a closer look

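In the 4 named transcripts and the measures per animal, 7 of 82 groups held 1 animal far from the rest by Dixon's criterion. Chance alone flags about 1 group in 20 where values are normally distributed. All 7 flags are of CPM, which were used without a log, so that rate need not hold for them. None of the 7 lies in the 9 A. fragilissima or the 9 seawater larvae induced at 5 h.

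Aqu2.1.42041_001 stood apart in 1 larva given Mesophyllum sp. at 5 h, with 82.1 CPM. It also stood apart in 1 larva given A. fragilissima at 8 h, with 121 CPM. In seawater larvae induced at 3 h, 1 larva had 23.5 CPM of it. Aqu2.1.32109_001 was at 2183 CPM in 1 larva given Mesophyllum sp. at 1.5 h.

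Aqu2.1.41060_001 was at 3947 CPM in 1 animal settled on A. fragilissima after induction at 5 h. It reached 3867 CPM in 1 post-larva on Mesophyllum sp. induced at 5 h. Aqu2.1.26016_001 was at 1596 CPM in 1 animal settled on A. fragilissima after induction at 5 h.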

How the results depend on the processing

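Against 47 calls (14 rose, 33 fell), fits to other animals gave 151 for the 18 compared larvae alone (56 and 95), 141 for all swimming larvae, 115 for the 72 given A. fragilissima or seawater, and 155 for the 17 in T and K. The sets of 72 and 17 and the DESeq2 fit without independent filtering were chosen after seeing the data. DESeq2 gave 125 (8 rose), with an adjusted p for only 1038 features, and 83 without independent filtering. No low-count filter gave 25, the total count as a covariate 71 (15 rose, 56 fell), and omitting features with a count above 0.5 of the maximum gave 18. Library T gave 1 and K 118. Without 1 larva the count ran from 17 to 75. DESeq2 size factors (40), a mean count of at least 10 (45), no library term (48) and a fit that was not robust (47) stayed within 1.5 times.

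For the difference between ages, 0 calls became 3 in DESeq2 with or without independent filtering and 2 with no low-count filter. The difference in total counts reversed in K, to 220843 more with the alga. Causes were not tested.

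Each named transcript kept its sign in the settings that tested it and its call without any 1 larva. Their sign in T and K was part of the choice, and 3 of the 4 were not tested where features with high counts were left out. Calls were lost in T, with the replicate block (log2 fold changes 3.08, 0.88, -0.65 and -0.70 for Aqu2.1.42041_001, Aqu2.1.32109_001, Aqu2.1.26016_001 and Aqu2.1.41060_001) and, for Aqu2.1.32109_001, in K, and DESeq2 with independent filtering gave Aqu2.1.42041_001 no adjusted p. Same-numbered larvae were not shown to be pairs: correlations of their deviations ran from -0.037 to 0.174, 1 of 7 above 0.1, and 1 of 7 larvae matched its own number best. A replicate block over these 14 animals gave 0 calls in edgeR (1021 at an unadjusted p below 0.05; DESeq2 was not run with it), against 77 with no replicate block (1241).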
